A study of Rattus norvegicus with 4 samples.

Results

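Cells make cholesterol and long-chain fatty acids from acetyl-CoA, and both pathways feed the lipid-rich membrane that Schwann cells wrap around axons. Expression was examined for 34 named genes of these pathways in RT4D6, a Schwann cell tumour line of the rat, after treatment with an siRNA against the transcription factor Sox10. Each gene was read from the probe set that the platform annotation pairs with its symbol alone, taking the brightest on average over the arrays where a gene had several. Of the 34 genes, 33 had such a probe set, out of 14217 genes with a single symbol on the array, and the expression of Hmgcs1, the synthase before HMG-CoA reductase, was not analysed here. All 33 were tested, among 9163 tested genes.

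The series holds 4 arrays of total RNA, 2 from cells given the wild type Sox10 siRNA, which is the specific one, and 2 from cells given the mutant Sox10 siRNA, its control, all at 48 hours. Every array comes from the 1 cell line, which carries no other treatment in the labels, and no untreated cells were analysed here. The study describes separate pairs of cell samples, the titles number them as replicate 1 and replicate 2, and how each culture was kept is not given in the sources used here, so that p-values measure the spread between these arrays alone. Signals are MAS5 intensities on a linear scale, on which a probe set's level says nothing about the level of another gene. A log2 fold change is the mean of the wild type siRNA arrays minus that of the mutant siRNA arrays, after each array was centred on its median, and a gene was called higher or lower where limma's adjusted p was under 0.05.

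As background, cholesterol synthesis runs from acetyl-CoA through mevalonate to farnesyl diphosphate, and from there through squalene and lanosterol to cholesterol. Most of its enzymes are transcribed under SREBP2, encoded by Srebf2, and many fatty acid genes under SREBP1, encoded by Srebf1. Both factors are held in the endoplasmic reticulum by the Insig proteins when sterols are plentiful, and Scap carries them out when sterols fall. Fads1 and Fads2 are the desaturases that put double bonds into polyunsaturated fatty acids, and the Elovl enzymes lengthen fatty acid chains.

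Promoter windows are shown for 4 genes on which the comparison turned, the sterol enzymes Hsd17b7 and Nsdhl, which were higher with wild type siRNA, and the desaturases Fads1 and Fads2, which were lower. Each window is RefSeq sequence of the rat build GRCr8, 250 bases before to 50 after the annotated start, printed 5′ to 3′ on the gene's own strand, with CCAAT boxes of either strand in capitals. The windows lie at chr13:84722705-84723004 on the minus strand for Hsd17b7, chrX:155817110-155817409 on the plus strand for Nsdhl, chr1:216252442-216252741 on the plus strand for Fads1 and chr1:216171984-216172283 on the minus strand for Fads2.
Hsd17b7: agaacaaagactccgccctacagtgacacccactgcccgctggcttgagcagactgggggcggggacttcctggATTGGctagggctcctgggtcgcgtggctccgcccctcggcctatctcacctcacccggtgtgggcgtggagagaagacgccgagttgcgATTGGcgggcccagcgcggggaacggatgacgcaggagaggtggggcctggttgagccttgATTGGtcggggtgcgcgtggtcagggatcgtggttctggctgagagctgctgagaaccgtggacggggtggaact
Nsdhl: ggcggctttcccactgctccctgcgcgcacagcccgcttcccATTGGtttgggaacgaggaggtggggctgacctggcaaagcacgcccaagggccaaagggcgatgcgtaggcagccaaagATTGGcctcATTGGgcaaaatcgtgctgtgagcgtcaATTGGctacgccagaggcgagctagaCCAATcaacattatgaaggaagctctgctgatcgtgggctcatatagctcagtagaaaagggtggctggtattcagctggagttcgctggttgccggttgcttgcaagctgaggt
Fads1: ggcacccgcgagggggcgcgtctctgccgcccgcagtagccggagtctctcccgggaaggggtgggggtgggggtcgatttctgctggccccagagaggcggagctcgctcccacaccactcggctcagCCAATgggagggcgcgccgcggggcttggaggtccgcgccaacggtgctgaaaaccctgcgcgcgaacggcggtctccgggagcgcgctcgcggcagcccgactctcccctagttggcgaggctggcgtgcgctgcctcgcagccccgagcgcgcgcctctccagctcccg
Fads2: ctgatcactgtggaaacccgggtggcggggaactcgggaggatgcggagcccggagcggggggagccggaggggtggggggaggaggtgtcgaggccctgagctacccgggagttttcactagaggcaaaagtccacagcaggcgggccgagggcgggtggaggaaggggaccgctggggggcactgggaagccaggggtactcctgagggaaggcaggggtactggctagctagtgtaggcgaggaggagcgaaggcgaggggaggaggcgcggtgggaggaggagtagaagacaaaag
The CCAAT box is the site of the factor NF-Y, which acts beside SREBP at many sterol genes. It occurred 3 times in the Hsd17b7 window, 5 times in that of Nsdhl and 1 time in that of Fads1, and the Fads2 window did not hold it. Fads2 and Fads1 are neighbours on chromosome 1, transcribed away from each other, with 80414 bases between their annotated 5′ ends.

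Promoter windows were found for 27 of the 34 genes. CCAAT, searched on both strands, was in 20 of the 27, against 37.5% of all 33469 rat promoter windows in the table, and the GC box GGGCGG, the site of Sp1, was in 22, against 33.1%. The windows of these genes had a median GC content of 65.2%, against 51.7% over all windows. Among called genes with a window, CCAAT was in 4 of the 5 that were higher and 2 of the 3 that were lower, so the motif was present on both sides. The Sox core ACAAT was in 3 of the 27 windows, those of Dhcr7, Insig2 and Elovl5, against 33.7% of all windows, and in none of the 4 printed ones. The Insig2 window, chr13:35040049-35040348, lies well inside the gene's annotated span, 35025160 to 35052937. Its Sox core and its CCAAT, counted among the higher genes, are thus matches within the gene. Windows of Hmgcs1, Srebf2, Scd and Acly, and a further one of Srebf1, also lie inside the annotated spans. The E-box CACGTG was in 4 windows, those of Insig1, Sc5d, Elovl5 and Scap, against 6.42% of all. The sterol regulatory element core TCACNCCAC was in 0 of the 27, against 1.12% of all. Motifs were searched one at a time, so that matches to different motifs may overlap, and a match or its absence describes only the letters of these windows.

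With wild type siRNA, 6 of the 33 genes were higher and 4 were lower, and 23 were not called. The higher ones were the sterol enzymes Mvd, Nsdhl and Hsd17b7, the sterol sensor Insig2, the sterol carrier Stard4 and the NADPH-making malic enzyme Me1. The lower ones were Srebf1, Fads1, Fads2 and Elovl6. Over all 9163 tested genes 17.4% were called higher and 10.6% lower, so the shares among the pathway genes, 18.2% and 12.1%, lay near the background. The median log2 fold change of the 33 genes was 0.55, against 0.19 over all tested genes. Of the 33 values 26 were above 0, against 5701 of all 9163 tested genes. Both wild type siRNA arrays lay above both mutant siRNA arrays in 14 genes and below them in 4, against 4152 and 2233 of all 9163 tested genes. In a population of cells, fewer cells of a type and less RNA per cell cannot be told apart.

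When same-numbered arrays were compared with each other, through a replicate block in the fit, the number called higher grew to 16 of 33 and the 4 lower genes stayed lower. The 10 added genes were Fdps, Fdft1, Lss, Cyp51, Msmo1, Sc5d, Insig1, Scap, Acly and Fasn, and no call was lost. Over all tested genes the block gave 24.5% higher and 14.0% lower. The block is thus read beside the main values throughout, since it decides which sterol genes pass the test. Leaving out 1 array moved the calls as well, and counts from such fits are not set against a background here. The median log2 fold change of the 33 genes then lay between 0.23 and 0.67, against 0.18 to 0.21 over all tested genes.

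**Figure D1:**
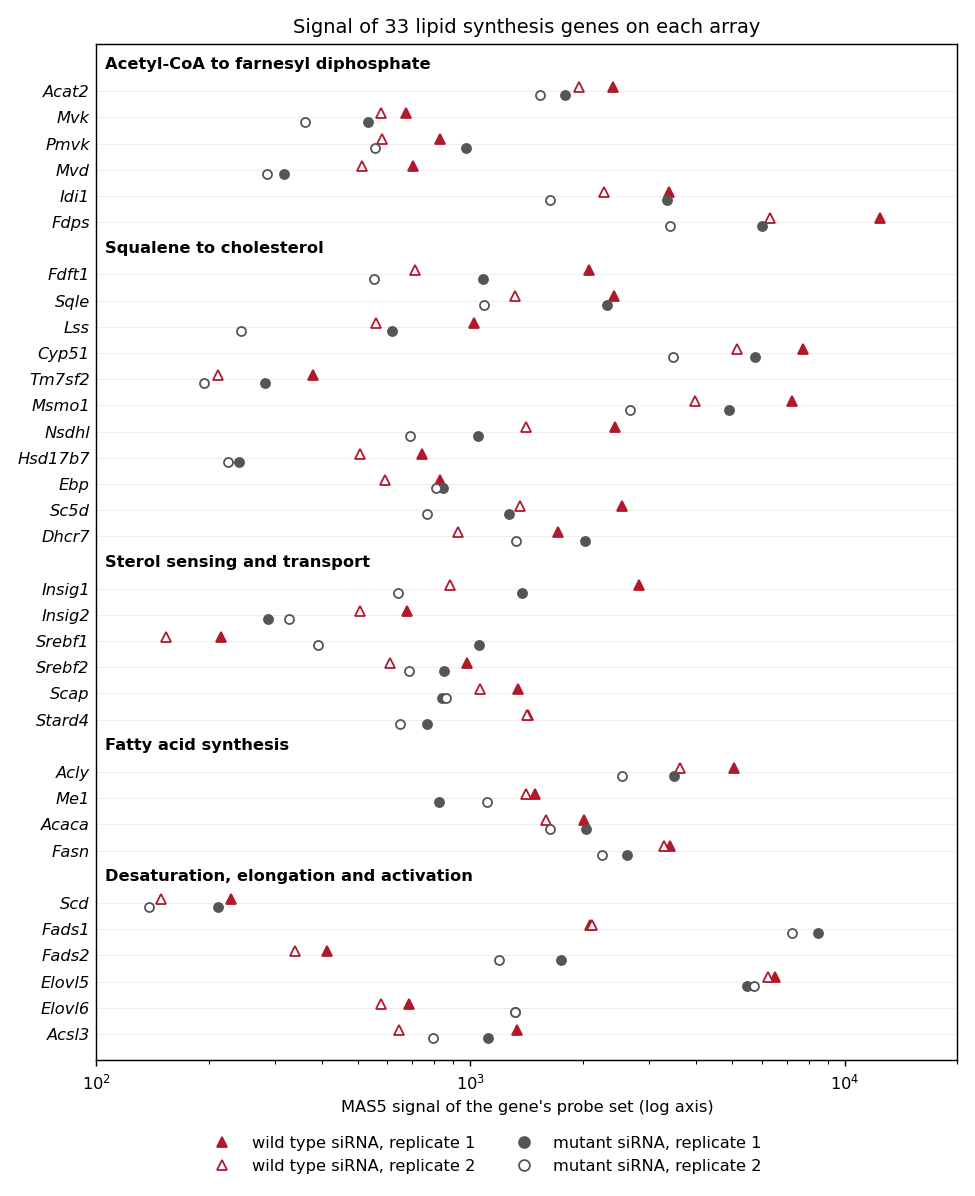
MAS5 signal of 33 lipid synthesis genes (rows, by pathway segment) on each array, on a logarithmic axis, as triangles for the 2 wild type siRNA arrays and circles for the 2 mutant siRNA arrays, filled for replicate 1 and open for replicate 2. Fads1, Fads2, Elovl6 and Srebf1 have both triangles left of both circles, and in 14 genes both triangles lie right of both circles.

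In the first segment, acetyl-CoA to farnesyl diphosphate, 1 of 6 measured genes was higher, against 17.4% of all tested genes. The median log2 fold change of the segment was 0.52. Mvd, the decarboxylase that makes isopentenyl diphosphate, had signals of 704 and 513 with wild type siRNA, against 317 and 286 with mutant siRNA. The groups did not overlap, and Mvd was 2.11-fold higher, a log2 fold change of 1.08 (standard error 0.25, limma adjusted p = 0.0169). That call was lost without wild type siRNA replicate 1, mutant siRNA replicate 1 or mutant siRNA replicate 2 (adjusted p = 0.0700, 0.0576 and 0.0877), while the log2 fold change of Mvd stayed at 0.88 or above.

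Fdps, farnesyl diphosphate synthase, had signals of 12438 and 6303 with wild type siRNA, against 6027 and 3416 with mutant siRNA. Its groups did not overlap, but the replicate 1 arrays were well above the replicate 2 arrays with either siRNA. Fdps stood at 1.04 on the log2 scale (standard error 0.34), with a limma adjusted p of 0.0530 without the block and 5.1e-05 with it. Without wild type siRNA replicate 2 or mutant siRNA replicate 1, Fdps passed the test without a block too (adjusted p = 0.00389 and 0.0399). Without wild type siRNA replicate 1 or mutant siRNA replicate 2, Fdps was at 0.58 and 0.62 (adjusted p = 0.200 and 0.268).

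Acat2, the cytosolic thiolase that opens the pathway, and Mvk, mevalonate kinase, had both wild type siRNA arrays above both mutant siRNA arrays, at log2 fold changes of 0.46 and 0.59, and neither passed the test with or without the block (adjusted p = 0.112 and 0.127 without it). A second Mvk probe set was at 0.69, with an adjusted p of 0.124 without the block and 0.0404 with it. Idi1, isopentenyl diphosphate isomerase, was at 0.33 with overlapping groups. Pmvk, phosphomevalonate kinase, stood apart from its segment. It had signals of 828 and 582 with wild type siRNA, against 971 and 556 with mutant siRNA, so that the siRNA difference ran one way in replicate 1 and the other way in replicate 2. Its log2 fold change was -0.0034 (95% interval -0.71 to 0.70).

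From squalene to cholesterol, 2 of 11 genes were higher without the block and 7 with it, against 17.4% and 24.5% of all tested genes. The median log2 fold change of the segment was 0.64. Hsd17b7, which reduces the ketone left when methyl groups are taken off the sterol ring, had signals of 742 and 507 with wild type siRNA, against 241 and 225 with mutant siRNA. Its 2.78-fold difference was the largest rise among the 33 genes, a log2 fold change of 1.47 (standard error 0.26, limma adjusted p = 0.00705). The call of Hsd17b7 was kept without any 1 of the 4 arrays, at log2 fold changes between 1.23 and 1.72. Nsdhl, the dehydrogenase that acts just before Hsd17b7 in the same demethylation, had signals of 2427 and 1408 with wild type siRNA, against 1046 and 688 with mutant siRNA. Its groups did not overlap, and it was 2.30-fold higher (log2 fold change 1.20, standard error 0.30, limma adjusted p = 0.0222). The call of Nsdhl was lost without wild type siRNA replicate 1 or mutant siRNA replicate 2 (adjusted p = 0.0686 and 0.125).

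The methyl oxidase of this demethylation, Msmo1, had signals of 7209 and 3968 with wild type siRNA, against 4892 and 2674 with mutant siRNA. Its groups overlapped, because mutant siRNA replicate 1 lay above wild type siRNA replicate 2. The log2 fold change of Msmo1 was 0.64, with an adjusted p of 0.179 without the block and 0.00333 with it. Sc5d, a late desaturase of the sterol ring, had signals of 2547 and 1360 with wild type siRNA, against 1269 and 767 with mutant siRNA. It was 1.99-fold higher, with an adjusted p of 0.0579 without the block and 0.00127 with it. With wild type siRNA replicate 2 left out, Sc5d was also called without a block (adjusted p = 0.00586), while with wild type siRNA replicate 1 or mutant siRNA replicate 2 left out it was at 0.57 and 0.61 (adjusted p = 0.224 and 0.289).

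The main probe sets of Lss, Cyp51 and Fdft1 had the same arrangement. Their siRNA difference had the same sign in both pairs of arrays, with a large gap between replicates. Lss, which closes the ring to lanosterol, had signals of 1019.7 and 559 with wild type siRNA, against 617 and 244 with mutant siRNA. Cyp51, the lanosterol demethylase, had signals of 7755 and 5153 with wild type siRNA, against 5764 and 3467 with mutant siRNA. Fdft1, squalene synthase, had signals of 2077 and 711 with wild type siRNA, against 1080.4 and 551 with mutant siRNA. In each of the 3 genes mutant siRNA replicate 1 lay above wild type siRNA replicate 2, and adjusted p values were 0.114, 0.145 and 0.279 without the block and 0.00406, 0.00524 and 0.0163 with it. Without wild type siRNA replicate 2, all 3 were called without a block (adjusted p = 0.0328 for Lss, 0.0462 for Cyp51 and 0.0101 for Fdft1). Lss was called as well without mutant siRNA replicate 1 (adjusted p = 0.0353). With wild type siRNA replicate 1 left out, Lss was at 0.63, Cyp51 at 0.31 and Fdft1 at -0.01 (adjusted p = 0.352, 0.483 and 0.987), and with mutant siRNA replicate 2 left out they were at 0.35, 0.19 and 0.23 (adjusted p = 0.559, 0.649 and 0.801).

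Sqle, squalene epoxidase, and Tm7sf2, a sterol reductase, were at log2 fold changes of 0.25 and 0.35 with overlapping groups, and passed neither fit. The remaining enzymes of the segment lay on the other side of 0. Dhcr7, a reductase at the end of the pathway, had signals of 1710.0 and 926 with wild type siRNA, against 2019 and 1321 with mutant siRNA. In both pairs of arrays the wild type siRNA value was the lower one, and the log2 fold change of Dhcr7 was -0.30 (95% interval -1.02 to 0.42, limma adjusted p = 0.509). Ebp, the sterol isomerase, had signals of 829 and 592 with wild type siRNA, against 846 and 807 with mutant siRNA, a log2 fold change of -0.16 (95% interval -0.68 to 0.36).

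**Figure D2:**
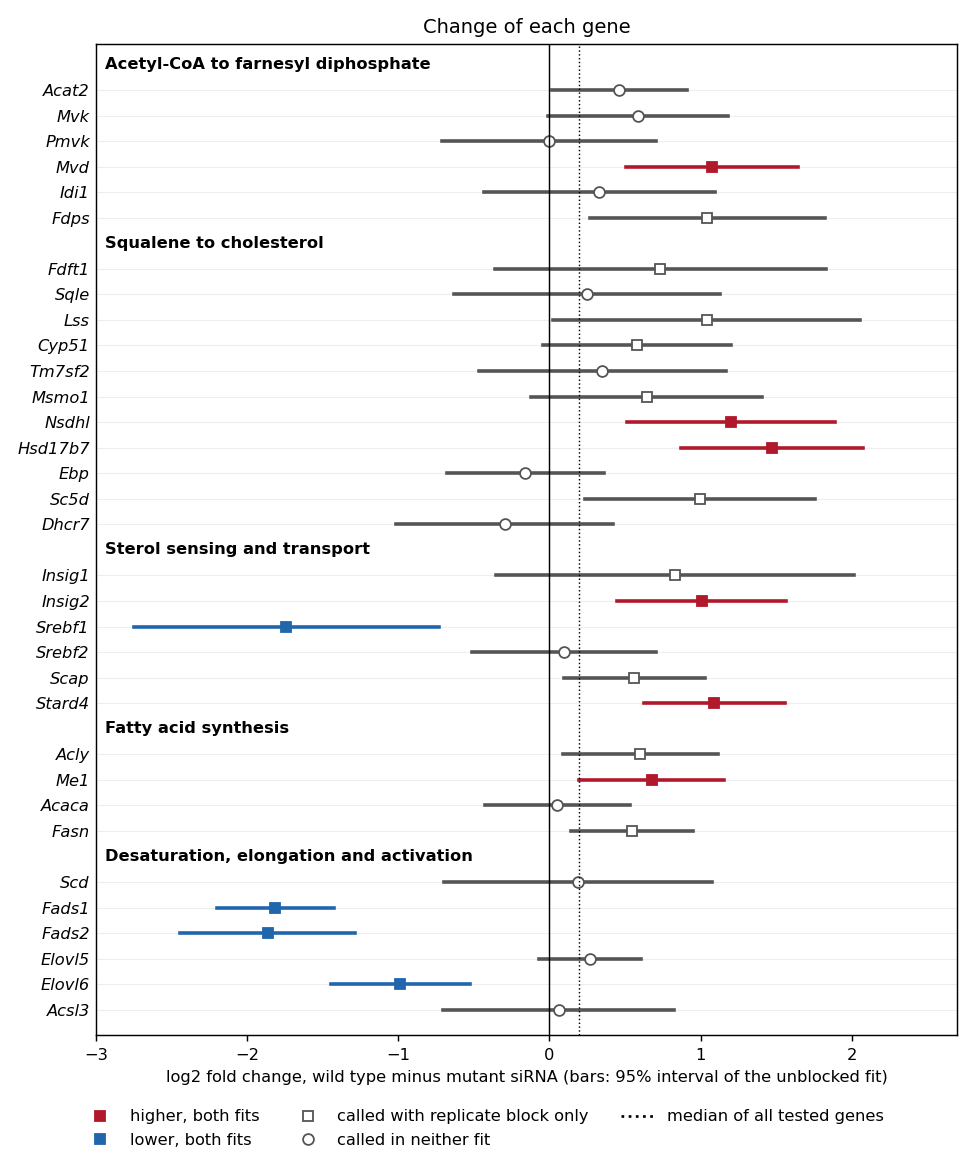
Log2 fold change, wild type minus mutant siRNA, of each of the 33 genes with its 95% interval in the fit without a block. Filled squares are genes called in both fits, 6 higher in red and 4 lower in blue, open squares are the 10 called with the replicate block only, circles were called in neither, and the dotted line at 0.19 is the median of all tested genes.

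Among the 6 genes of sterol sensing and transport, 2 were higher and 1 was lower, against 17.4% and 10.6% of all tested genes. Stard4, a carrier that moves cholesterol between membranes, had signals of 1423 and 1412 with wild type siRNA, against 763 and 648 with mutant siRNA. It was 2.13-fold higher (log2 fold change 1.09, standard error 0.20, limma adjusted p = 0.00816). With mutant siRNA replicate 2 left out, Stard4 missed the threshold (adjusted p = 0.0547). Insig2 had signals of 678 and 506 with wild type siRNA, against 288 and 328 with mutant siRNA. It was 2.01-fold higher (log2 fold change 1.01, standard error 0.25, limma adjusted p = 0.0202). The call of Insig2 was lost without wild type siRNA replicate 1, mutant siRNA replicate 1 or mutant siRNA replicate 2 (adjusted p = 0.0838, 0.0955 and 0.0686).

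Srebf1 was the only gene of this segment with a negative log2 fold change. It had signals of 215 and 154 with wild type siRNA, against 1051 and 392 with mutant siRNA. The groups did not overlap, but the mutant siRNA arrays differed from each other by 1.46 on the log2 scale. Srebf1 was 3.35-fold lower (log2 fold change -1.74, standard error 0.44, limma adjusted p = 0.0231). Without mutant siRNA replicate 1 its log2 fold change was -1.01 and the call was lost (adjusted p = 0.132).

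Srebf2 had signals of 978 and 610 with wild type siRNA, against 852 and 685 with mutant siRNA. It was called in neither fit, at a log2 fold change of 0.09 (95% interval -0.51 to 0.70). Insig1, a partner of Scap that is itself a target of SREBP, had signals of 2827 and 883 with wild type siRNA, against 1372 and 642 with mutant siRNA. With these wide gaps between replicates, Insig1 had an adjusted p of 0.258 without the block and 0.00663 with it, at a log2 fold change of 0.83. It was called without a block when wild type siRNA replicate 2 was left out (adjusted p = 0.00784), but was at 0.02 and 0.26 with wild type siRNA replicate 1 or mutant siRNA replicate 2 left out (adjusted p = 0.980 and 0.785). Scap had signals of 1337 and 1057 with wild type siRNA, against 839 and 862 with mutant siRNA, and an adjusted p of 0.0732 without the block and 0.0471 with it.

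The 4 genes of fatty acid synthesis all had positive log2 fold changes, with a median of 0.57. Of these, 1 was called higher without the block and 3 with it, against 17.4% and 24.5% of all tested genes. Me1, malic enzyme, had signals of 1489.8 and 1407 with wild type siRNA, against 826 and 1109 with mutant siRNA, and was 1.60-fold higher (log2 fold change 0.68, standard error 0.21, limma adjusted p = 0.0456). This call rested on all 4 arrays, since the adjusted p of Me1 was between 0.0684 and 0.240 when any 1 of them was left out, and it was lost in 13 of 19 alternatives. Fasn, fatty acid synthase, had signals of 3408 and 3296 with wild type siRNA, against 2614 and 2248 with mutant siRNA. Both groups were tight and apart, and the 1.46-fold difference of Fasn had a limma adjusted p of 0.0506 without the block and 0.0190 with it. A second Fasn probe set had signals of 1051 and 763 with wild type siRNA, against 754 and 744 with mutant siRNA. It was at a log2 fold change of 0.34 and called in neither fit (limma adjusted p = 0.283 without the block and 0.240 with it). Acly, which makes cytosolic acetyl-CoA from citrate, had signals of 5049 and 3628 with wild type siRNA, against 3489 and 2543 with mutant siRNA. Its adjusted p was 0.0787 without the block and 0.00711 with it, and between 0.0303 and 0.372 when 1 array was left out. Acaca, the acetyl-CoA carboxylase that commits carbon to fatty acids, was at a log2 fold change of 0.05 with overlapping groups (95% interval -0.42 to 0.53). A second Acaca probe set had signals of 304 and 310 with wild type siRNA, against 157 and 215 with mutant siRNA. That probe set was at 0.82, with an adjusted p of 0.0722 without the block and 0.0482 with it.

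Apart from Srebf1, the genes called lower were those of desaturation and elongation of fatty acids, where 3 of 6 genes were lower. Over all tested genes 10.6% were lower. The median log2 fold change of the segment was -0.46. Fads1 had signals of 2092 and 2114 with wild type siRNA, against 8463 and 7225 with mutant siRNA. It was 3.52-fold lower (log2 fold change -1.82, standard error 0.17, limma adjusted p = 0.00130). Fads2, its neighbour on the chromosome, had signals of 413 and 340 with wild type siRNA, against 1746 and 1191 with mutant siRNA. It was 3.64-fold lower (log2 fold change -1.87, standard error 0.25, limma adjusted p = 0.00291), the largest fall among the 33 genes. Both calls were kept without any 1 of the 4 arrays, where the adjusted p was at most 0.0136 for Fads1 and 0.0243 for Fads2.

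Elovl6, which extends palmitate, had signals of 685 and 576 with wild type siRNA, against 1316 and 1318 with mutant siRNA. It was 1.99-fold lower (log2 fold change -0.99, standard error 0.20, limma adjusted p = 0.0106). Its size held without any 1 array, between -1.09 and -0.89, and its call was lost without mutant siRNA replicate 1 or mutant siRNA replicate 2 (adjusted p = 0.0635 and 0.0582). The summed signal of Fads1, Fads2 and Elovl6 was 3190.2 and 3030 with wild type siRNA, against 11525 and 9734 with mutant siRNA, and these sums differed little between the replicates of 1 siRNA.

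The other enzymes of this segment were not called. Elovl5, the elongase of polyunsaturated chains that works between the Fads2 and Fads1 steps, had signals of 6512 and 6217 with wild type siRNA, against 5463 and 5722 with mutant siRNA. Its groups did not overlap, at a log2 fold change of 0.27 that was not called (95% interval -0.07 to 0.60, limma adjusted p = 0.208). Scd, the stearoyl-CoA desaturase, had signals of 230 and 149 with wild type siRNA, against 212 and 139 with mutant siRNA, not far above the array medians of 102 to 111. No probe sequences were used here to tell Scd and its close copy Scd2 apart, and the log2 fold change of Scd was 0.19 (95% interval -0.70 to 1.07). Acsl3, which activates fatty acids with coenzyme A, was at 0.06, with opposite signs in the 2 pairs of arrays.

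**Figure D3:**
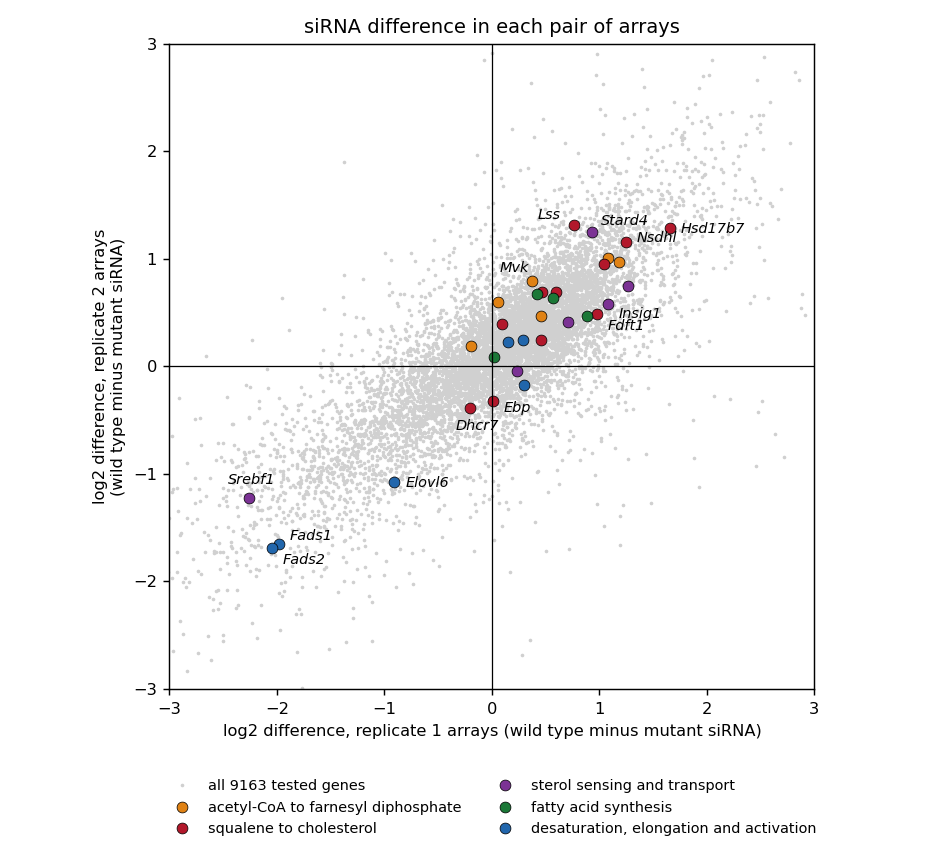
Log2 difference, wild type minus mutant siRNA, between the replicate 1 arrays (horizontal) and between the replicate 2 arrays (vertical), with 9163 tested genes in grey and the 33 genes coloured by segment. Of the coloured points 24 are above 0 on both axes and 5 below 0 on both, with Fads1, Fads2, Srebf1 and Elovl6 in the lower left, and grey points beyond 3 on either axis are not drawn.

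Taken pair by pair, the wild type siRNA array was the higher one in both pairs for 24 of the 33 genes (72.7%) and the lower one in both for 5 (15.2%), against 52.3% and 28.8% of all tested genes. Within the 17 measured enzymes of the sterol pathway, acetyl-CoA to cholesterol, it was the higher one in both pairs for 14 (82.4%). The summed signal of these 17 enzymes was 49560.4 and 28907 with wild type siRNA, against 33363 and 19813 with mutant siRNA. The ratio of wild type to mutant siRNA was therefore 1.49 in the replicate 1 arrays and 1.46 in the replicate 2 arrays. A sum of this kind is dominated by the bright probe sets, such as that of Fdps.

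All 17 sterol enzymes had higher signals in replicate 1 than in replicate 2 with wild type siRNA and also with mutant siRNA, against 2838 of 9163 tested genes (31.0%). Their summed signal was 1.71 times higher in replicate 1 with wild type siRNA and 1.68 times higher with mutant siRNA. The median difference between replicates, on the log2 scale, was 0.73 with wild type siRNA and 0.76 with mutant siRNA, against -0.0064 and 0.04 over all tested genes. The gap of Insig1 was 1.62 with wild type siRNA and 1.13 with mutant siRNA, and that of Srebf1 was 0.43 with wild type siRNA and 1.46 with mutant siRNA. Over the 16 genes outside the sterol pathway 9 were higher in replicate 1 with both siRNAs, and Fads1 and Me1 were among those whose replicates were ordered differently with the 2 siRNAs.

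The standard errors of the sterol enzymes had a median of 0.31 without the block and 0.20 with it, against 0.23 and 0.22 over all tested genes. What distinguished the replicate 1 cells or arrays is not given in the sources used here and was not tested.

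**Figure D4:**
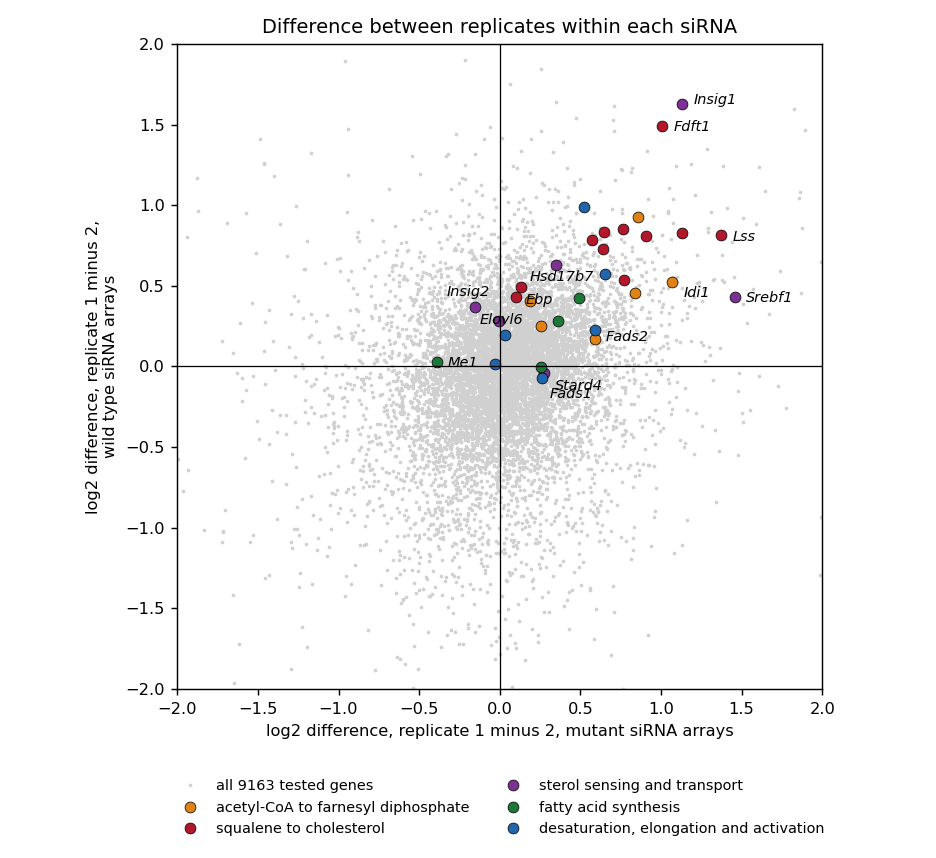
Log2 difference between replicate 1 and replicate 2 within the wild type siRNA arrays (vertical) and within the mutant siRNA arrays (horizontal), with 9163 tested genes in grey and the 33 genes coloured by segment. All 17 enzymes of the sterol pathway (orange and red) lie above 0 on both axes, and grey points beyond 2 on either axis are not drawn.

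A gene's probe sets did not always tell the same story. Of the 33 genes 18 had further probe sets, 21 in all, of which 18 were tested, 3 were called higher, 2 were called lower and 13 were not called. The sign was that of the gene's main probe set in 12 and the opposite in 6. The second Hsd17b7 probe set had signals of 556 and 363 with wild type siRNA, against 271 and 146 with mutant siRNA, and was higher as well (log2 fold change 1.25, adjusted p = 0.0361). The second Elovl6 probe set had signals of 283 and 301 with wild type siRNA, against 1166 and 884 with mutant siRNA, and was lower as well (log2 fold change -1.72, adjusted p = 0.00320). A second probe set of Cyp51 was higher (log2 fold change 0.71, adjusted p = 0.0388), where the main one was called with the block only.

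A second probe set of Lss had signals of 1103 and 460.0 with wild type siRNA, against 257 and 15.8 with mutant siRNA, a log2 fold change of 3.56 (adjusted p = 0.0409). Its lowest value lies under the 25th percentile of that array, 31.1, so the size of this difference is not well measured. Stard4 was contradicted by a further probe set, with signals of 410 and 636 with wild type siRNA, against 1171 and 899 with mutant siRNA. That probe set was called lower (log2 fold change -0.93, adjusted p = 0.0418), opposite to the main one, so the direction of Stard4 depends on which of its probe sets is read. For Sc5d, a further probe set was at -0.95 (adjusted p = 0.0876 without the block and 0.0406 with it) and another at -0.06, where the main one was at 0.99. With the block, Sc5d was therefore called lower by one probe set and higher by the main one. Second probe sets of Nsdhl and Insig2 were at -0.21 and 0.03 and were not called, and that of Srebf1 was lower in both pairs at -0.93 without passing the test (adjusted p = 0.110). Fdft1 and Idi1 had second probe sets at -0.07 and -0.09, with opposite signs in the 2 pairs of arrays and called in neither fit.

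**Figure D5:**
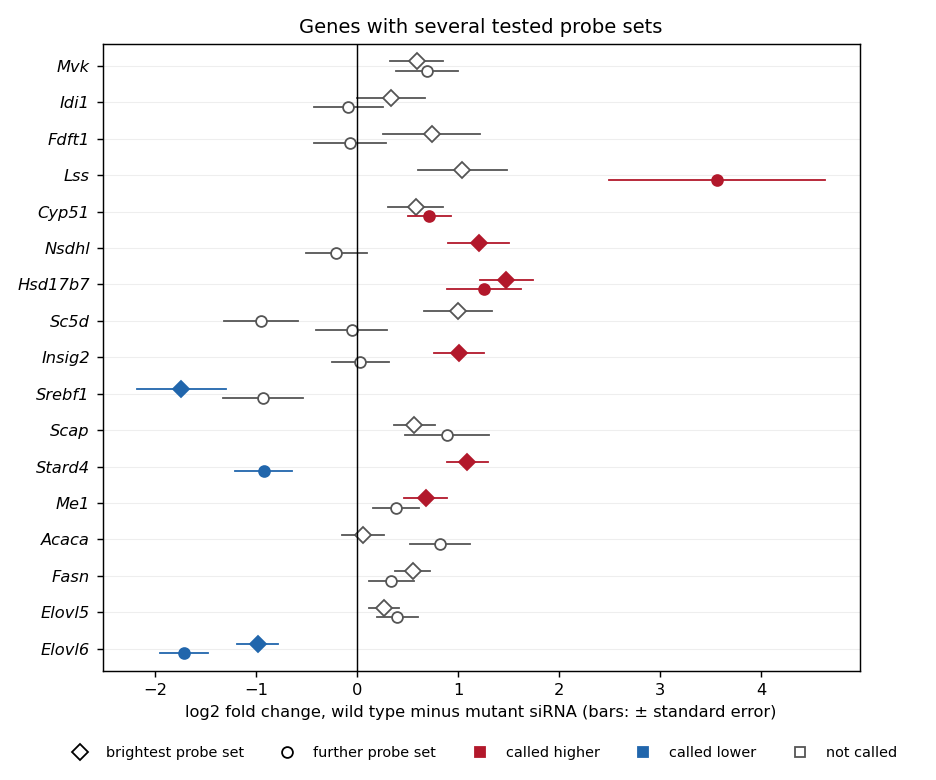
Log2 fold change, wild type minus mutant siRNA, with its standard error for the genes that have more than 1 tested probe set, as diamonds for the main (brightest) probe set and circles for further ones, red where called higher, blue where called lower and open where not called. Hsd17b7 and Elovl6 have both probe sets called on the same side, and Stard4 has them called on opposite sides.

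Other genes of the pathways were counted from lists chosen by function, beside 17.4% higher and 10.6% lower over all tested genes. In the isoprenoid branch, which leaves the sterol pathway at farnesyl diphosphate, 3 of 10 tested genes were higher and 1 was lower. The higher ones were Icmt, which methylates prenylated proteins, at a log2 fold change of 1.50, Ggps1, which makes geranylgeranyl diphosphate, at 1.38, and Pggt1b, a subunit of a prenyl transferase, at 1.30. Nus1, needed for dolichol synthesis, was lower at -0.79. Ggps1 was not called without mutant siRNA replicate 1 (adjusted p = 0.0773), Pggt1b without mutant siRNA replicate 2 (adjusted p = 0.0620) and Nus1 without any 1 of the arrays other than wild type siRNA replicate 2 (highest adjusted p = 0.154).

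Among 27 tested genes of other lipid synthesis, 5 were higher and 3 were lower, near the shares over all tested genes, 17.4% and 10.6%. Acss2, which makes acetyl-CoA from acetate, had signals of 1127 and 858 with wild type siRNA, against 327 and 177 with mutant siRNA, a log2 fold change of 2.11 (adjusted p = 0.00416). Gpam, the first acyltransferase of glycerolipid synthesis, was higher at 1.49. On the other side, Fabp5, a fatty acid binding protein, had signals of 2151 and 3830 with wild type siRNA, against 8850 and 10885 with mutant siRNA, a log2 fold change of -1.69 (adjusted p = 0.00480). Agpat2, an acyltransferase of the next glycerolipid step, was lower at -1.56. The calls of Acss2, Gpam, Fabp5 and Agpat2 were kept without any 1 array, while 2 genes of the list were higher without mutant siRNA replicate 1. The other called genes were Hacd1, an enzyme of chain elongation, at 1.22, Ptdss2, which makes phosphatidylserine, at 1.01, Slc25a1, the mitochondrial citrate carrier, at 0.66 and Scd2, a stearoyl-CoA desaturase, at -0.63.

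Of 14 tested genes of sterol uptake, storage and efflux, 3 were higher and 1 was lower, against 17.4% and 10.6% of all tested genes. Mylip, a ligase that marks the LDL receptor for breakdown, was higher at a log2 fold change of 1.38, Nr1h2, a nuclear receptor for oxysterols, at 0.89 and Vldlr, a lipoprotein receptor, at 0.75. The mutant siRNA signals of Mylip, 85.9 and 73.6, lay under the medians of those arrays, 108.1 and 110.9. Mylip thus entered the test only through the group where it was high, and the size of its difference is not well measured. Abca1, the cholesterol efflux pump, was lower at -1.35. The call of Mylip needed all 4 arrays (highest adjusted p with 1 left out 0.132). Nr1h2 was not called without wild type siRNA replicate 1 or mutant siRNA replicate 1, Vldlr without any 1 array other than wild type siRNA replicate 1, and Abca1 without wild type siRNA replicate 2 or mutant siRNA replicate 1 (highest adjusted p = 0.144, 0.130 and 0.228). Of 10 tested genes of SREBP control, 2 were higher, against 17.4% of all tested genes. These were Prkaa2, a catalytic subunit of the energy sensor AMPK, at 1.24 and Ubxn8 at 0.86. Both calls needed every array other than wild type siRNA replicate 2. With 1 array left out, Prkaa2 was at 0.73 or above and Ubxn8 at 0.78 or above.

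In fatty acid oxidation, which runs against synthesis, 3 of 20 tested genes were higher without the block and 7 with it. Over all tested genes the shares were 17.4% and 24.5%. Decr1, a reductase for unsaturated fatty acids, was at a log2 fold change of 0.93, Etfdh, which passes electrons on to ubiquinone, at 0.74 and Etfb, a subunit of its electron donor, at 0.72. Decr1 was not called without mutant siRNA replicate 2, Etfdh without any 1 of the 4 arrays, and Etfb without any 1 array other than wild type siRNA replicate 2 (highest adjusted p = 0.0691, 0.208 and 0.132). The median log2 fold change was 0.36 in fatty acid oxidation, 0.28 in the isoprenoid branch, 0.20 in other lipid synthesis, 0.43 in uptake, storage and efflux and 0.37 in SREBP control, beside 0.55 for the 33 genes and 0.19 for all tested genes.

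Markers of cell state moved with the siRNA beside these genes. Sox10 itself was lower at a log2 fold change of -3.54 (limma adjusted p = 0.00130). Of 13 tested Schwann cell and glia markers 11 were lower, against 10.6% of all tested genes. The summed signals of the 13 markers were 8200.0 and 9368 with wild type siRNA, against 40909 and 29309 with mutant siRNA. Falls at least as large as that of Sox10 were found in Ngfr at -4.69 and Mia at -3.59. Erbb3 was at -3.93, but its wild type siRNA signals of 35 and 32.6 lay near the 25th percentiles of those arrays, 28 and 26.2. Being under the medians of those arrays, Erbb3 entered the test only through the group where it was high, and the size of its fall is not well measured. Of 7 tested smooth muscle markers 4 were higher, Myl9 at 4.59, Acta2 at 2.37, Tagln at 1.72 and Cald1 at 0.77, against 17.4% of all tested genes. Myh11 at 1.37 and Tpm1 at 0.24 were called in neither fit. Des, Cnn1, Tpm2, Lmod1 and Actg2 had signals under the median of every array and were not tested. Among these, Des and Tpm2 had both wild type siRNA arrays below both mutant siRNA arrays. With mutant siRNA replicate 1 left out, Acta2 was no longer called (adjusted p = 0.0808), and neither was Cald1 without wild type siRNA replicate 2 or without mutant siRNA replicate 1 (adjusted p = 0.154 and 0.203). Smtn, at -0.84, was lower with the block only. Signals summed over the 12 smooth muscle markers on the array were 62572 and 87110.1 with wild type siRNA, against 29277 and 45042 with mutant siRNA, and were higher in replicate 2 with each siRNA, unlike the sterol enzymes.

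Of the cell cycle genes, 17 of 21 tested were lower without the block and 21 with it, against 10.6% and 14.0% of all tested genes. Among them were the helicase subunits Mcm5 at a log2 fold change of -2.21, Mcm7 at -1.92 and Mcm6 at -1.91, and the checkpoint kinase Bub1b at -2.08. Their summed signals were 24162 and 42772 with wild type siRNA, against 80515 and 88407 with mutant siRNA. Replicate 1 was lower than replicate 2 here, with median differences of -1.01 with wild type siRNA and -0.25 with mutant siRNA, while the sterol enzymes had the opposite order. The count of lower cell cycle genes was 10 without wild type siRNA replicate 1, 10 without mutant siRNA replicate 1 and 8 without mutant siRNA replicate 2. Of 8 fibroblast markers 2 were bright enough to be tested, Col3a1 at 1.50 and Col1a1 at 0.70, and both were called with the block only. Of 7 macrophage markers 1 was tested, Cd14 at 0.41, and it was called in neither fit. The other fibroblast and macrophage markers, such as Dcn, Csf1r and Itgam, had signals under the median of every array. The part of these shifts in the changes of the lipid genes was not tested.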

How the data were processed

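The authors deposited intensity values, 1 linear MAS5 signal per probe set of the Affymetrix Rat 230 2.0 array (the submitters' processing notes give no version of MAS5), and the median normalization that the study's methods describe was not in the deposited intensities. Gene names came from the platform annotation. Of 31099 probe sets 57 controls were left out, and 20826 of the rest had a single symbol.

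Signals were turned to log2, centred on each array's median, and the 16125 probe sets at or above it on at least 2 of 4 arrays went into a fit by limma 3.58.1, run in R 4.3.3, with lmFit and eBayes and an intensity trend, which was first tested on simulated data. P-values were Benjamini-Hochberg adjusted over all of them, with calls at 0.05, and intervals are at 95%. The median signal was 102 to 111 per array, and the number of arrays limits the precision.

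The design text describes sets of paired cells and the titles number the replicates, so arrays of equal number were paired in 1 alternative, by a replicate block. The deviations of such arrays from the mean of their own group had a correlation of 0.14 over 16125 probe sets.

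The 34 genes and the other lists were chosen with earlier results of these data known. Called genes and those against the direction of their segment were given per array, and of each other list the up to 4 called genes with the largest change. Values of genes gained with the block, and further genes of the lists (Hacd1, Ptdss2, Slc25a1, Scd2, Col3a1, Col1a1, Cd14), were added after their values were seen. Alternatives were other scalings, a floor, a pseudocount, other filters, other probe sets, no trend, the methods' t-test and leaving out each array. Tables and plots used Python 3.11.15, pandas 2.3.3 and matplotlib 3.10.9.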

Additional observations from a re-analysis of the deposited data

How the results depend on the processing

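With no further scaling and with quantile normalization, the median log2 fold change of the 33 genes was 0.47 and 0.42, against 0.55, and with the replicate block and those scalings, chosen after seeing the data, it was again 0.47 and 0.42, with 15 genes higher in each. The replicate block alone gave 16 higher, against 6, and changed no call of the lower genes. Over all tested genes the share called higher was 24.5% with the block, against 17.4%. Counts and medians under the other scalings, probe sets and tests are not set beside those of all tested genes here. The mean over all probe sets of a gene gave a median of 0.34 over 32 genes and 2 higher, and the second probe set a median of 0.34 over 17 genes, 3 higher and 2 lower. The methods' t-test after Benjamini-Hochberg adjustment called 0 genes in each direction, against 6 higher and 3 lower at its unadjusted p under 0.05. Leaving out 1 array gave 1 to 13 higher, 2 to 4 lower and a median of 0.23 to 0.67. Of single genes, Nsdhl turned to -0.21 and Stard4 to -0.93 with the second probe set, Stard4 to -0.10 with the mean over probe sets, Nus1 to 0.21 with the second probe set and Nr1h2 to -0.27 with the mean. The causes were not tested. The floor, the pseudocount, the other filters and the fit without an intensity trend left both counts within 1.5 times. Hsd17b7, Fads1 and Fads2 kept their calls in every alternative except the adjusted t-test of the methods. With 2 arrays for each siRNA, a gene that was not called may still differ.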

Other observations

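Egr2, a transcription factor known to drive myelin and lipid genes in Schwann cells, was picked after its values were seen. It was 1 of 4 glial markers, out of 13 tested, with higher signals in replicate 1 than in replicate 2 with both siRNAs. All 17 sterol enzymes had that order too, as did 31.0% of all tested genes, and a link to Egr2 was not tested. Egr2 had signals of 1351 and 390.3 with wild type siRNA, against 1616 and 401 with mutant siRNA. On the log2 scale replicate 1 was above replicate 2 by 1.74 with wild type siRNA and 2.05 with mutant siRNA, and the siRNA difference was -0.07 (95% interval -1.63 to 1.49, limma adjusted p = 0.951). Over all 13 tested Schwann cell and glia markers the order was mixed, with a median difference between replicates of -0.41 with wild type siRNA and 0.57 with mutant siRNA.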
